A study of Mus musculus with 15 samples.

Results

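The 10 genes described here belong to the Notch pathway and were followed across 15 mouse kidney arrays. They are the receptors Notch1, Notch2, Notch3 and Notch4, the ligands Jag1 and Dll4, the DNA-binding factor Rbpj, its coactivator Maml2, and the target genes Hey1 and Heyl. Each of the 10 genes was represented by the probe set that the platform annotation assigns to it alone, out of 19938 genes with such a probe set. Rbpj and Maml2 had 2 such probe sets each, and the brighter one over all arrays was used. The genes were taken by name, but the list was drawn up with earlier results of these data known.

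Notch receptors are membrane proteins that bind ligands of the Delta and Jagged families on neighbouring cells. Binding leads to cleavage of the receptor, and the released intracellular part joins Rbpj and a Mastermind coactivator on DNA to switch on target genes, among them those of the Hes and Hey families. In the kidney the pathway is known for its part in nephron patterning, in vessel walls and in the renin-producing cells beside the glomerulus.

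The study compared 4 groups. The MM group held 4 single cells (numbered 14, 15, 16 and 19) of the E11.5 metanephric mesenchyme, the embryonic tissue that gives rise to nephrons, from Crym-GFP mice carrying Tg(Crym-EGFP)GF82Gsat. The JG group held 5 single cells (numbered 4 to 8) of the juxtaglomerular complex, picked as YFP-positive cells next to glomeruli from adult male Ren1c-YFP mice. One label field for the JG cells names a Ren1d GFP line instead. The diluted cortex group (A, B and C) was adult male Ren1c-YFP renal cortex, a mixture of cell types, lysed, diluted and amplified as if it were 1 cell. The standard cortex group (A, B and C) was the same kind of tissue labelled with a commercial kit. The first 3 groups went through 32 rounds of amplification and the standard cortex through 1. Strain was unspecified, no agent was given, and the sex of the embryos was unknown. In both transgenic lines the fluorescent protein marks the cells in which the promoter of the transgene is active, and the JG cells were picked for being positive for it. No label says which animal a cell or library came from. The cells of a group therefore count as 1 sample and were not tested, and p-values for the cortex measure only the spread between these libraries, which may be technical.

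Values are log2 probe set signals. The background of each array was taken as the 99th percentile of its 1024 olfactory receptor probe sets, genes with no known use in most kidney cells, and a gene above it was called above background. Between groups, levels were compared relative to the median of these receptors on the same array. In MM cells the background lay between 7.17 and 7.61, in JG cells between 7.62 and 8.0, in diluted cortex between 6.32 and 6.41, and in standard cortex between 6.32 and 6.53. Of 18759 other named genes, an MM cell had 10.6% to 21.4% above background and a JG cell 6.45% to 13.7%, against 46.1% to 50.6% for the cortex libraries. JG cells 5 (6.45%) and 6 (7.63%) had the fewest. The median of 57 ribosomal protein genes was 8.44 and 8.38 in JG cells 4 and 5 and 12.3 to 12.6 in the other 7 cells.

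The cell labels were checked against marker lists. Among MM cells, Hoxd11, a patterning gene of the mesenchyme, was above background in 4 of 4 (7.88 to 9.15) and the nephron progenitor gene Six2 in cells 14 (7.53) and 16 (10.13), while Eya1, Sall1 and Hoxa11 were below background in all 4. Hoxd11 was also above background in JG cell 8 and in the 6 cortex libraries. Of the 10 mesenchyme genes, 2 to 4 were above background in an MM cell and 5 in JG cell 8 (Cited1, Osr1, Wt1, Hoxd11 and Gdnf), so that the list did not separate the 2 kinds of cell. The renin genes themselves had no probe set used here. Crip1 (11.96 to 13.01) was above background in 5 of 5 JG cells, Gja4 in cells 4, 7 and 8 and Rgs5 in cells 4, 6 and 7. Gja5 and Nkx2-1 of the same list were below it in every JG cell. These renin cell markers were listed with earlier results of these data known, so they are no independent check of the labels. Acta2, the smooth muscle actin, reached 12.20 and 11.32 in JG cells 7 and 8 only. All 8 proximal tubule genes of the list were above background in each cortex library, and 1 of them, Miox, reached 12.63 in JG cell 5, where Gja4 and Rgs5 were below background.

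A promoter window of Rbpj and one of Maml2 are shown because Rbpj showed the largest difference of the 10 genes, and because Rbpj itself and Maml2 were the 2 genes whose windows carried the core that the Rbpj protein binds. The core searched was TGGGAA on both strands, in the 250 bases before and 50 after each start in the RefSeq promoter table (GRCm38.p6). Capitals mark it, as TGGGAA on the forward strand and as TTCCCA on the reverse strand.
Rbpj, chr5:53590096-53590395, + strand: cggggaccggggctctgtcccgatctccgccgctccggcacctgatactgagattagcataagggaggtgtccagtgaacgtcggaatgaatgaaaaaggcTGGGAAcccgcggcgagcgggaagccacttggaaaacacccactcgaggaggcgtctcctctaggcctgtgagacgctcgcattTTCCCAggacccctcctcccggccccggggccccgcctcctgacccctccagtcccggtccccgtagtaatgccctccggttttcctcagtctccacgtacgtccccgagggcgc
Maml2, chr9:13662210-13662509, + strand: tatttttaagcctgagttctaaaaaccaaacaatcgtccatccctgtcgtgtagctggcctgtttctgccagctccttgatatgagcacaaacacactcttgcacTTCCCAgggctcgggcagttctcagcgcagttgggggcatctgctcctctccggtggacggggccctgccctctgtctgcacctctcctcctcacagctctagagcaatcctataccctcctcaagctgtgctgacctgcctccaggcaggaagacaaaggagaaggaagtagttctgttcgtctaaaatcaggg

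The Rbpj window shown held the core at 149 and 65 bases before its own start, and the Maml2 window shown at 145. That Rbpj window lies inside the gene, downstream of the start of the gene in the RefSeq gene table (53555779). The other Maml2 window (chr9:13297708-13298007), nearer the start of the gene (13296561), did not hold the core. A further Rbpj window that overlaps the first held the same reverse-strand match, 205 bases before its own start, so that 3 of the 10 windows of these genes held the core with that match counted in both. Windows were found for 8 of the 10 genes, and Hey1 and Heyl had none. Of all 32851 windows in the table, 8397 (25.6%) held the core. The match describes letters in a window and is no evidence of binding.

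Across all arrays the 10 genes lay close to background. Their median fell between percentile 96.1 and 99.1 of the receptors on each array, and no member exceeded the brightest receptor in any cell or diluted cortex library. The only one that did on any array was Rbpj in standard cortex B. The highest level of any of the 10 genes in a JG cell was 8.57, and in an MM cell 7.96, whereas the 99th percentile of named genes in single cells was 10.3 to 12.1. Among 40 pairs of a gene and an MM cell, 12 were above background, and among 50 pairs in JG cells 20 were, where 16.7% and 9.58% of all pairs of a named gene and a cell were. Of 30 pairs in each cortex group, 10 were above it in diluted cortex (50.1% of named gene pairs) and 16 in standard cortex (48.7%). In tissue, fewer cells of a type and less RNA per cell cannot be told apart.

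Heyl and Notch3 were above background in 4 of 4 MM cells, and Dll4 and Heyl in 5 of 5 JG cells. That is 2 of 10 genes in each cell group, where 6.17% and 3.01% of named genes were above background on every MM and every JG array. Dll4 and Notch3 were above it in all diluted cortex libraries (2 of 10, against 46.9% of named genes). Notch1, Notch3 and Rbpj were above it in all standard cortex libraries (3 of 10, against 44.8%). In single cells the share thus lay above that of named genes and in cortex below it. The list was drawn up with earlier results of these data known, so this is no independent result about the 10 genes. Heyl passed background by only 0.02 in MM cell 16 and in JG cell 6. At the stricter limit of the brightest receptor, the counts fell to 0 in the cells and in diluted cortex and to 1 gene and library in standard cortex. Of named genes, 1.64% to 4.88% passed that limit in a JG cell and 3.40% or more in an MM cell. In diluted cortex 27.49% to 28.98% passed it, and in standard cortex 18.76% to 31.10%. The counts lay below these shares in both cortex groups, while 0 among 10 genes says little beside the small JG shares.

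**Figure D1:**
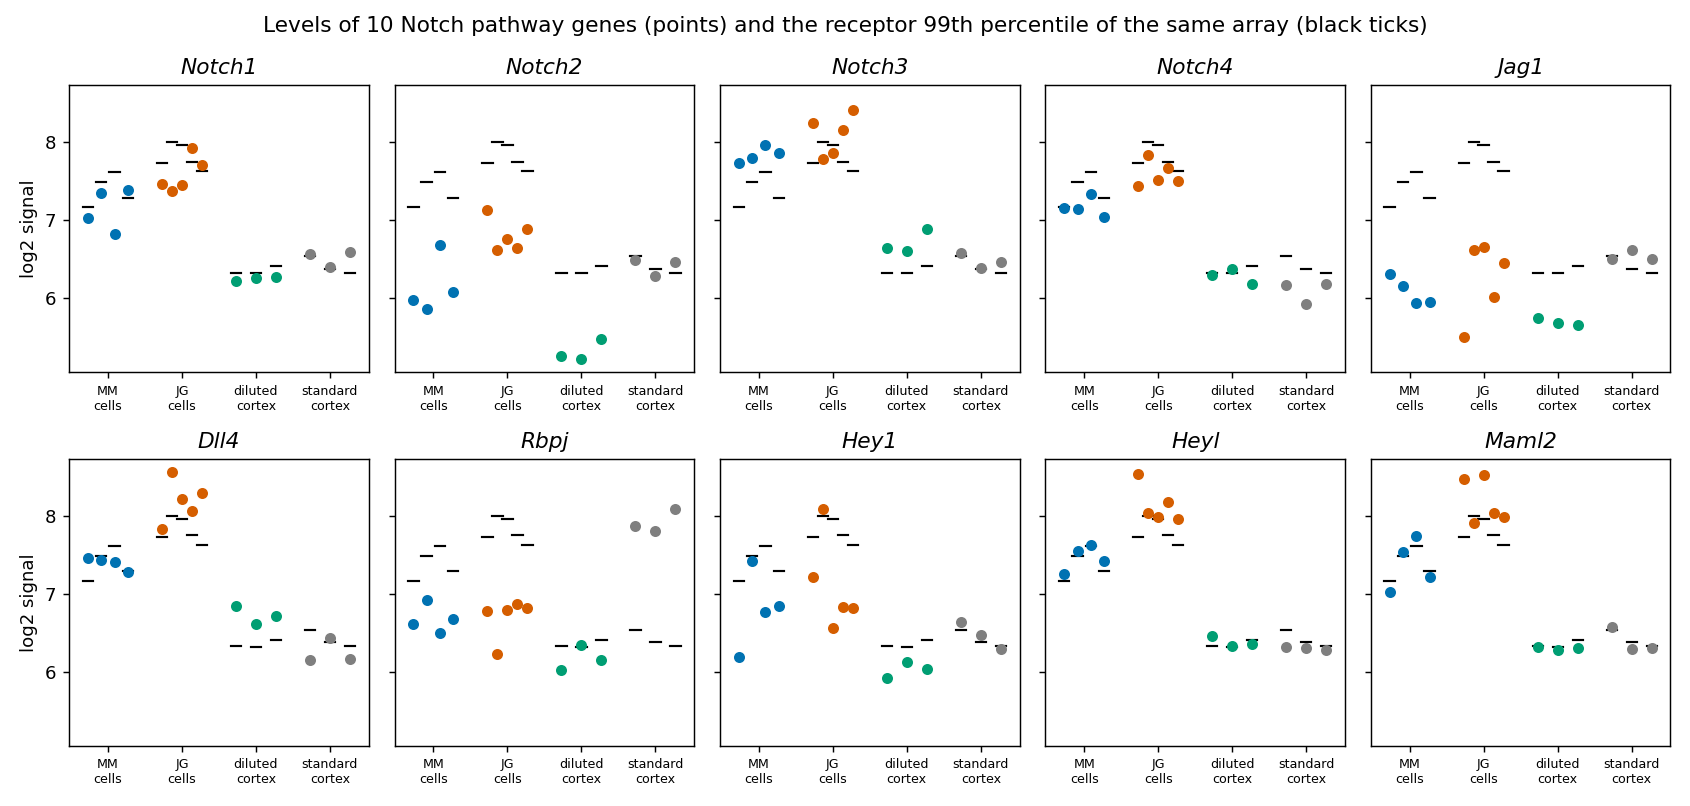
Level of each of the 10 genes on every array (points, log2 signal) by group, with a black tick at the background of the same array, the 99th percentile of olfactory receptors. Most points sit near or below their tick, and only Rbpj in the 3 standard cortex libraries (7.81 to 8.10) stands more than 1 log2 unit above it.

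Among the receptors, Notch3, known from vessel-wall cells, was above background in 7 of the 9 cells. It measured 7.74, 7.80, 7.96 and 7.86 in MM cells 14, 15, 16 and 19. In JG cells 4 to 8 it measured 8.24, 7.79, 7.86, 8.16 and 8.41, so that JG cells 5 and 6 were below their own background and the other 3 above it. Diluted cortex gave 6.64, 6.60 and 6.88, and standard cortex 6.57, 6.38 and 6.46. Relative to the receptor median, the order of group means was JG (2.80), MM (2.76), diluted (2.47) and standard cortex (2.19). JG and MM overlapped, while MM and diluted cortex, and diluted and standard cortex, did not. Of the 9 genes of the smooth muscle and pericyte list, Acta2 was above background in JG cells 7 and 8, Myl9 in JG cell 7 (12.79) and MM cell 19 (11.80) and Mcam in MM cell 14, while the other 6 were below it in all 9 cells. In all, 0 to 2 were above background in a cell and 4 or 5 in a cortex library. Their summed level over the receptor median ranged between 11.54 and 19.74 (MM), 10.09 and 25.95 (JG), 22.01 and 25.29 (diluted cortex) and 19.67 and 24.88 (standard cortex), and its part in the Notch3 levels was not tested.

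Notch1, a receptor of many lineages including early nephrons and endothelium, was at the border of background. Its levels were 7.02, 7.34, 6.82 and 7.39 in MM cells and 7.47, 7.37, 7.45, 7.92 and 7.71 in JG cells. Only MM cell 19 and JG cells 7 and 8 were above background. The means of the 4 groups relative to the receptor median lay between 2.01 and 2.29, and neighbours in the order (JG, standard cortex, MM, diluted cortex) overlapped.

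Notch2, the receptor known for its role in proximal nephron fate, was below background in all 9 cells. It measured 5.98, 5.85, 6.68 and 6.08 in MM cells and 7.13, 6.62, 6.76, 6.64 and 6.88 in JG cells. Diluted cortex gave 5.25, 5.21 and 5.47 and standard cortex 6.49, 6.28 and 6.46, of which only library C was above background. Relative to the receptor median the order was standard cortex (2.13), JG (1.51), diluted cortex (1.08) and MM (1.07). The first 3 groups did not overlap with their neighbours, while diluted cortex and MM did. JG, diluted cortex and MM lay wholly below background, so their order is one of background readings and not of levels.

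Notch4, an endothelial receptor, ranged from 7.04 to 7.33 over the MM cells and from 7.44 to 7.83 over the JG cells. This receptor was below background in every cell, and above it on 1 of the 15 arrays, diluted cortex B (6.37). A further 6 probe sets name Notch4 together with another gene and were not used. The order of group means was JG (2.30), MM (2.08), diluted cortex (2.04) and standard cortex (1.80), and only the last 2 did not overlap, with nearly all readings below background.

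Of the ligands, Dll4, made by arterial and sprouting endothelium, was the one above background in every JG cell. Its JG levels were 7.83, 8.57, 8.22, 8.06 and 8.29. In MM cells it measured 7.46, 7.44, 7.41 and 7.28, above background in cell 14 alone. Diluted cortex gave 6.84, 6.61 and 6.71, all above background, and standard cortex 6.14, 6.43 and 6.16, of which only B was. The order was JG (2.90), diluted cortex (2.48), MM (2.32) and standard cortex (1.96), with every neighbouring pair overlapping.

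Markers of endothelium were read beside Dll4 and Notch4. Of 12 endothelial genes, 0 or 1 was above background in a JG cell, and 10 of the 12, among them Pecam1, Cdh5, Kdr and Tek, were below it in all JG cells. The exceptions were Cldn5 in JG cell 5 (10.77) and Egfl7 in JG cells 4 and 8. JG cell 5 also had the highest Dll4 level, while Dll4 lay farther above background in JG cell 8 (0.67 against 0.57). A link between these markers and Dll4 was not tested. MM cell 14 had 3 of the 12 above background, with Emcn at 11.77, and the other MM cells had Egfl7 alone (8.80 to 9.29). The summed level of the list over the receptor median ranged between 16.24 and 23.36 (MM), 15.16 and 20.56 (JG), 43.08 and 44.70 (diluted cortex) and 35.32 and 38.50 (standard cortex).

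Jag1, a ligand of vessel walls and developing nephrons, was low in the cells. It measured 6.31, 6.16, 5.93 and 5.95 in MM cells and 5.49, 6.61, 6.65, 6.01 and 6.45 in JG cells. Each of these 9 values was 0.86 or more below the cell's background, and JG cell 4 was the lowest. Diluted cortex gave 5.74, 5.68 and 5.65, below background, and standard cortex 6.50, 6.61 and 6.49, of which B and C were above it. Relative to the receptor median the order was standard cortex (2.25), diluted cortex (1.45), MM (1.01) and JG (0.95), and only the last 2 overlapped. The last 3 groups were wholly below background, so no order of levels can be read among them.

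Rbpj, through which the receptors act on DNA, was below background in all 9 cells. MM cells measured 6.62, 6.92, 6.49 and 6.67, and JG cells 6.78, 6.23, 6.79, 6.86 and 6.82. Diluted cortex gave 6.03, 6.34 and 6.15, with only B above background, and standard cortex 7.87, 7.81 and 8.10, all above it. The order was standard cortex (3.64), diluted cortex (1.94), MM (1.59) and JG (1.40), of which only the first pair did not overlap, and MM and JG were wholly below background. The second Rbpj probe set was below background on every array, and its mean was 5.82 in MM, 6.11 in JG, 4.78 in diluted and 4.69 in standard cortex. It did not show the standard cortex level of the first.

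Maml2, a Mastermind coactivator, measured 7.02, 7.54, 7.74 and 7.21 in MM cells and 8.47, 7.90, 8.53, 8.04 and 7.98 in JG cells. It was above background in MM cells 15 and 16 and in every JG cell except cell 5. Diluted cortex gave 6.27 to 6.32, below background, and standard cortex 6.29 to 6.57, above it in A alone. Relative to the receptor median JG (2.89) was the highest group and did not overlap with MM (2.30), while MM, standard (2.11) and diluted cortex (2.06) overlapped with their neighbours. The second Maml2 probe set was below background on all 15 arrays (means 5.91 in MM, 6.77 in JG, 5.15 in diluted and 6.11 in standard cortex).

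Of the target genes, Heyl, a transcriptional repressor of vessel-wall cells, was the only one of the 10 genes above background in all 9 cells. It measured 7.25, 7.55, 7.63 and 7.43 in MM cells, each within 0.2 of the background. In JG cells it measured 8.54, 8.04, 7.98, 8.18 and 7.96, with cell 4 the farthest above background (by 0.81). Diluted cortex gave 6.45, 6.33 and 6.36, and standard cortex 6.32, 6.30 and 6.27. The order was JG (2.85), MM (2.39), diluted cortex (2.14) and standard cortex (2.01), and no neighbours overlapped.

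Hey1, a related repressor known from vessels, had the largest SD of the 10 genes over JG cells on values as deposited (0.60), and relative to the receptor median Jag1 (0.55) and Hey1 (0.54) had the largest. It measured 6.19, 7.42, 6.77 and 6.84 in MM cells, all below background. In JG cells it measured 7.22, 8.08, 6.56, 6.83 and 6.82, and JG cell 5 alone was above background. Standard cortex gave 6.64, 6.48 and 6.29, with A and B above background, and diluted cortex 5.92 to 6.12, below it. The group means lay between 1.72 and 2.18 relative to the receptor median, and neighbours in the order overlapped.

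On values as deposited, the median spread of the 10 genes over cells was smaller than that of named genes. The SD of the log2 level over the 4 MM cells had a median of 0.18 over the 10 genes (0.08 to 0.50), and over the 5 JG cells 0.26 (0.16 to 0.60). The median over named genes was 0.33 and 0.32, and that over receptors 0.31 and 0.35. In diluted cortex the median SD was 0.10 for the 10 genes and 0.11 for named genes, and in standard cortex it was 0.13 for both. Relative to the receptor median, the SDs of the 10 genes ran from 0.08 to 0.48 in MM and from 0.19 to 0.55 in JG cells. Those of named genes were not computed on that scale, so the smaller spread holds for values as deposited only.

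**Figure D2:**
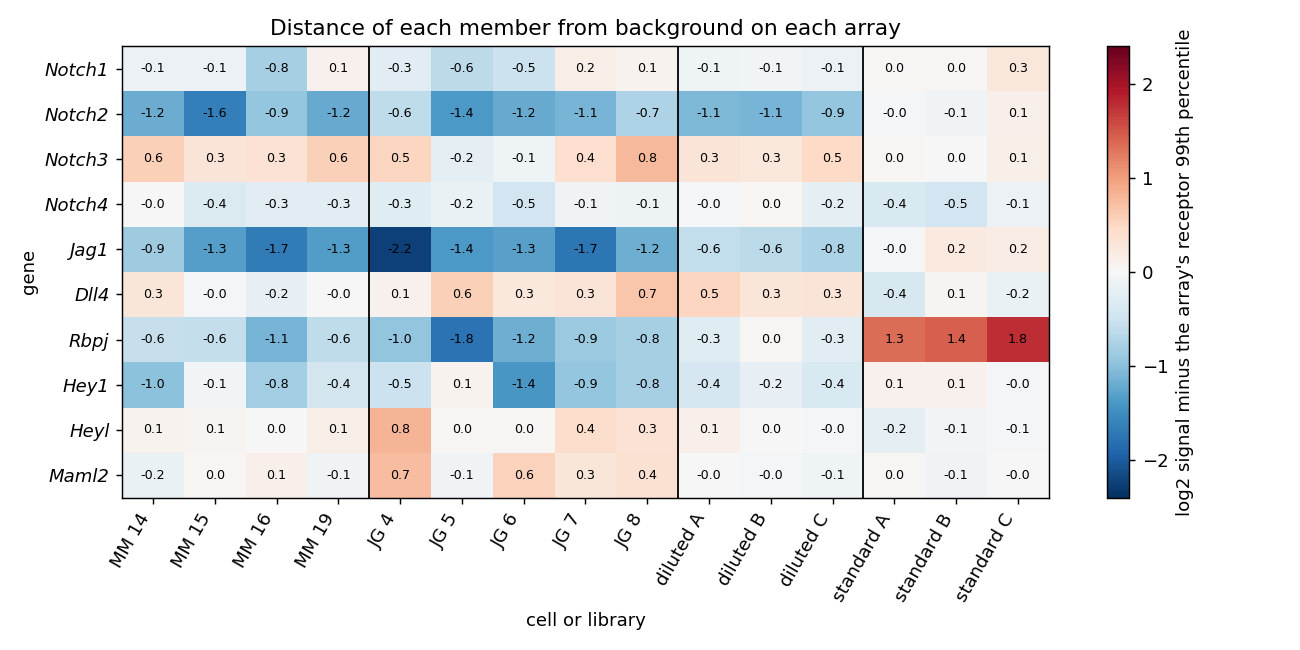
Log2 signal minus the background of the same array for each gene (rows) on each array (columns, grouped as MM cells, JG cells, diluted and standard cortex). Red is above and blue below background, and Heyl is the one row that is above it in all 9 cells, while Jag1, Notch2, Notch4 and Rbpj are below it there.

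JG cells were compared with diluted cortex, the tissue amplified in the same way, to describe what sets these cells apart from the mixed cortex. Heyl was 0.70 higher in the JG cells than in diluted cortex with no overlap between the groups, as a log2 difference relative to the receptor median. Maml2 did not overlap either and was at least 1.71-fold higher in JG cells relative to the receptor median. This is a bound because no diluted library was above background (the readings differed by 0.83 in log2). Such bounds set the mean of the brighter group against the background of the dimmer one, and this one holds on that scale only. With the receptor 99th percentile as reference the Maml2 readings differed by 0.42 and the groups overlapped. The readings of Notch2 (0.44 higher), Jag1 (-0.50) and Rbpj (-0.54) did not overlap, but Notch2 and Jag1 were below background in both groups and Rbpj in all but diluted library B, so no difference in level can be read for these 3. The other 5 genes overlapped, with differences of 0.02 to 0.42. Over named genes, 6.89% were higher without overlap and 49.1% lower, against 3 and 2 of the 10 genes. The median difference of the 10 genes was 0.30, that of named genes -0.64 and that of receptors -0.03. The 1st to 99th percentile of receptors spanned -0.64 to 0.77. Maml2 alone lay outside that span, though inside the full range of receptors (-0.84 to 0.90).

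The higher values in JG cells depended on the reference. With the 99th percentile of the receptors subtracted in place of their median, none of the 10 genes was higher without overlap, the readings of Jag1 (-0.91) and Rbpj (-0.94) were lower without overlap, and the median difference turned to -0.10. Without JG cell 4 the number higher without overlap was 5, without JG cells 4 and 5 it was 6, and without JG cells 5 and 6 it was 5, while 2 were lower in each case. Notch2, below background in every JG cell and diluted library, was among those higher each time. Leaving out a cell makes it easier for the groups of any gene not to overlap. The share of named genes was not counted in these settings.

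MM cells were compared with diluted cortex in the same way. Notch3 (0.29) and Heyl (0.24) were higher in MM cells without overlap and the Jag1 reading (-0.45), below background in both groups, was lower, where 6.15% of named genes were higher and 43.7% lower. The other 7 genes overlapped, from -0.34 for Rbpj to 0.23 for Maml2. The median over the 10 genes was 0.02, that of named genes -0.53 and that of receptors -0.03. All 10 differences lay within the 1st to 99th percentile of receptors (-0.61 to 0.61). With the 99th percentile as reference, Notch3 (0.09) and Heyl (0.05) overlapped, Jag1 (-0.64) and Rbpj (-0.54) were lower without overlap, and the median was -0.18. Without MM cell 19 the median was -0.03, and without MM cell 15 or diluted library A 2 genes were lower without overlap. Named genes were not counted in these settings.

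The embryonic MM cells and the adult JG cells, which share the amplification, were also set side by side. Heyl (-0.46) and Maml2 (-0.59) were lower in MM than in JG cells without overlap, and no gene was higher without overlap. Over named genes, 1.79% were lower and 1.99% higher. Dll4 differed by -0.58 with overlapping groups, and 4 genes (Notch2, Notch4, Jag1 and Rbpj) were below background in all cells of both. The median over the 10 genes was -0.22, against 0.02 over named genes and -0.01 over receptors. With the 99th percentile as reference, Heyl (-0.25) and Maml2 (-0.38) overlapped between the groups and the median was -0.01. Without JG cells 4 and 5, 4 genes were lower in MM cells without overlap, and the share of named genes was not counted there. The 2 comparisons with diluted cortex share its libraries, and this one shares the cells of both. Age, cell type, mouse line and isolation differ together between MM and JG cells and cannot be told apart.

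**Figure D3:**
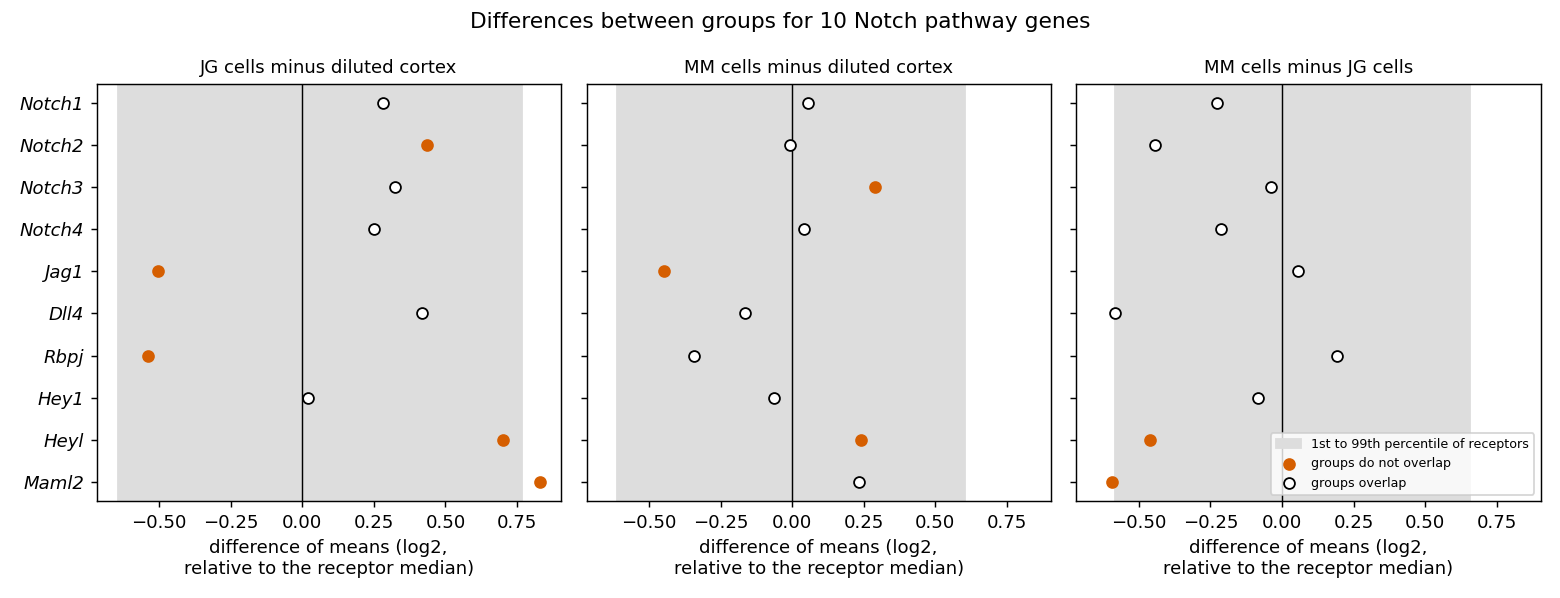
Differences between group means (log2, relative to the receptor median) for the 10 genes in the 3 comparisons, with the 1st to 99th percentile of olfactory receptors as a grey band. Filled points are genes whose groups do not overlap, and most points of either kind lie inside the band. Points of genes below background in a group, such as Jag1 and Notch2, are differences of background readings.

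The 2 kinds of cortex library differ in lysis, dilution, kit and rounds of amplification together, and no label says whether they came from the same animals, so these cannot be told apart. Rbpj fell by 1.75 on the log2 scale, from 7.92 ± 0.15 (SD, n = 3) in standard to 6.17 ± 0.16 (SD, n = 3) in diluted cortex (limma, adjusted p = 3.7e-06). Of the diluted libraries only B was above background for Rbpj. The signals of Notch2 (log2 difference -1.10, adjusted p = 3.0e-05), Jag1 (-0.85, adjusted p = 3.5e-05), Hey1 (-0.44, adjusted p = 0.0080) and Notch1 (-0.27, adjusted p = 0.023, all limma) were lower too. These 4 genes were below background in all 3 diluted libraries, and above it in 1, 2, 2 and 3 of the standard ones. For Jag1, Hey1 and Notch1 the folds are thus bounds on values as deposited: standard cortex was at least 1.14-fold, 1.08-fold and 1.12-fold higher. Notch2 lay at background in standard cortex too (mean difference from it -0.002), so no fold is given for it. Dll4 was 0.47 higher in diluted cortex (adjusted p = 0.0056, limma), with 3 diluted and 1 standard library above background. In each of these 6 genes the 3 diluted libraries lay on 1 side of the 3 standard ones.

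The other 4 genes did not pass the test. The differences, with their 95% intervals, were 0.23 (-0.01 to 0.48) for Notch3, 0.20 (-0.05 to 0.44) for Notch4, 0.08 (-0.11 to 0.27) for Heyl and -0.09 (-0.33 to 0.14) for Maml2. Of the 10 genes, 1 was thus higher and 5 were lower, while over 19165 probe sets tested 38.6% were higher and 36.8% lower in diluted cortex. The Notch1 call was lost without diluted library A or C or standard library A or C (adjusted p = 0.057 to 0.079 in limma), after quantile normalization (0.081) and relative to the receptor 99th percentile (0.14), and with all 15 arrays in 1 limma fit Notch1, Hey1 (adjusted p = 0.38) and Dll4 (adjusted p = 0.053) were lost. Notch3 passed relative to the receptor median (0.28, adjusted p = 0.043, limma), after quantile normalization (adjusted p = 0.032) and relative to the 99th percentile (adjusted p = 0.048), and Notch4 after quantile normalization (adjusted p = 0.024).

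**Figure D4:**
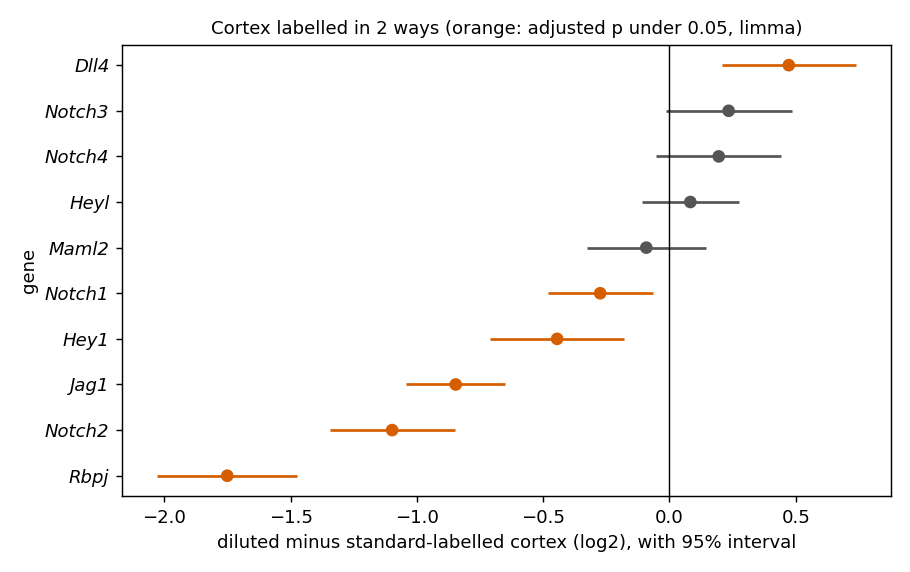
Diluted minus standard-labelled cortex for each of the 10 genes (log2, points) with the 95% interval of the limma fit (lines). Orange marks the 6 genes with an adjusted p under 0.05, of which Rbpj, Notch2, Jag1, Hey1 and Notch1 are lower and Dll4 is higher in diluted cortex; Notch2, Jag1, Hey1 and Notch1 were below background in all diluted libraries.

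The wider pathway was read from a list of 52 further genes, of which 49 had a probe set of their own. In single cells, 3 of the 49 were above background in every MM cell and 2 in every JG cell, against 32 in every diluted and 29 in every standard library. These are 6.12%, 4.08%, 65.3% and 59.2% of the list, where named genes had 6.17%, 3.01%, 46.9% and 44.8%, so that in the cells the list lay near the share of named genes. Unlike the 10 genes, some of these reached high levels in single cells. Psenen, a subunit of the gamma-secretase that cuts the receptor, measured 6.91, 8.22, 10.22 and 11.91 in MM cells 14, 15, 16 and 19 and 7.37, 7.95, 7.31, 9.14 and 10.71 in JG cells 4 to 8. It was high in some cells of each group and below background in others. In diluted cortex it was 11.41 to 11.51.

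In all 9 cells, 1 of 6 ligands and 1 of 7 targets were above background. Dlk1, a non-canonical ligand, was above background in all 9 cells, with 10.52 and 10.46 in MM cells 15 and 19, 7.70 and 8.24 in the other MM cells and 7.77 to 8.48 in JG cells. Its relative Dlk2 was above background in all MM cells (7.64 to 7.94) and in every JG cell except cell 7. Over the JG cells Dlk2 ranged from 7.73, in cell 7, to 8.95. Hes5, a repressor and target, was above background in all 9 cells, with MM cells at 7.88 to 8.36 and JG cells at 8.02 to 9.25. The target Hes1 was above background in JG cells 5 (8.66), 7 (8.14) and 8 (8.03) and MM cell 15 (7.50), and Hes7 in MM cells 14 (7.26) and 19 (7.31) and JG cells 4 (7.95) and 8 (8.01).

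Myc, a growth regulator that Notch can activate in some tissues, measured 11.13, 10.87, 5.90 and 9.05 in MM cells, while JG cells lay at 5.73 to 6.95. This gene was above background in 3 of 4 MM cells and in none of the JG cells. The pathway genes named here were chosen for being above background in enough MM cells or in enough JG cells. A gene could thus enter through MM cells alone or through JG cells alone. Contrasts between MM and JG cells among these genes follow partly from that choice and were not tested. The corepressor Ctbp1 measured 10.91, 7.73, 7.12 and 11.31 in MM cells, with JG cells at 6.67 to 7.59. Hdac1, a histone deacetylase, measured 8.50, 10.72, 5.78 and 9.24 in MM cells and passed background in JG cell 7 alone (7.90). Snw1, a cofactor of Rbpj, was above background in MM cells 14 to 16 (7.71 to 8.0). In JG cells the coactivator Maml1 passed background in cells 4, 7 and 8 (7.76 to 7.78), the ubiquitin ligase Neurl1a in all but cell 5 (7.82 to 8.25), and the ligase Dtx1 in cells 4, 5 and 8 (7.83 to 8.17).

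**Figure D5:**
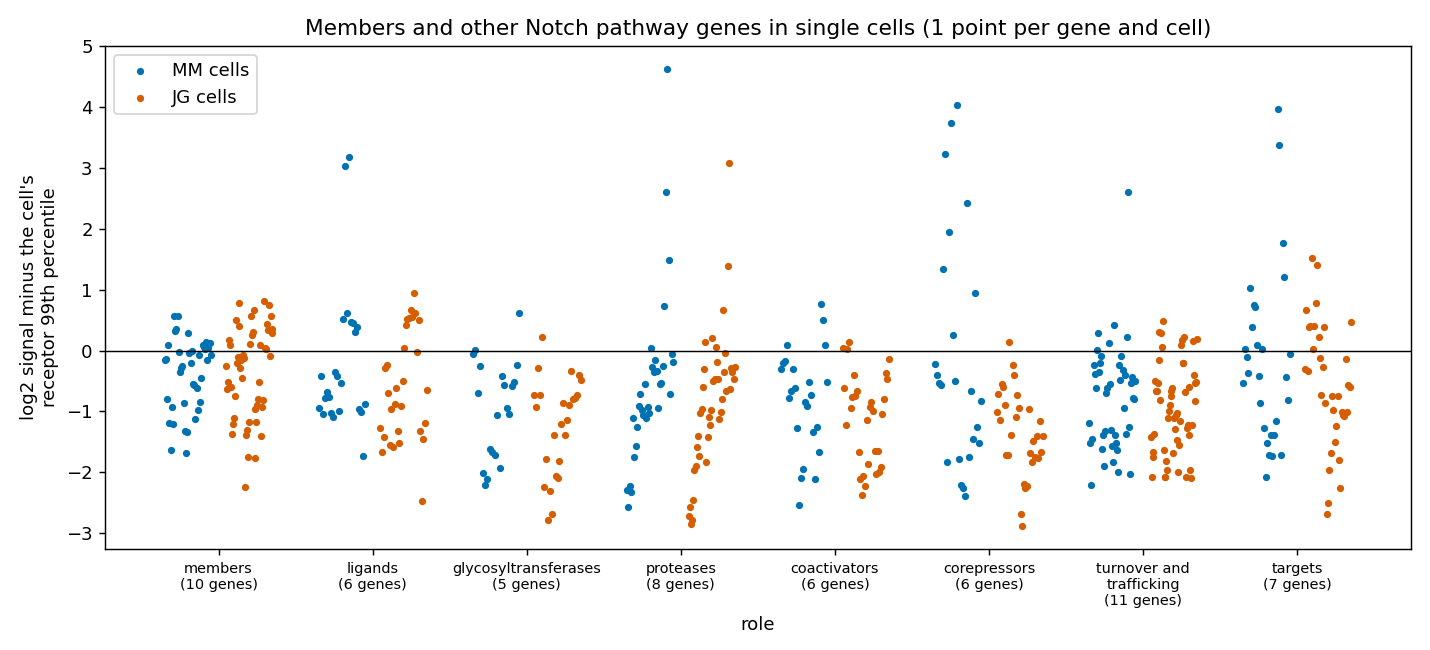
Log2 signal minus the background of the same cell for the 10 genes (members) and for the other pathway genes by role, with 1 point per gene and single cell. The 10 genes stay within 0.81 above background, while Psenen, Ctbp1, Myc, Hdac1 and Dlk1 reach 3.0 or more above it in single cells.

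In the cortex fit, 43 of the 49 genes passed the filter on dim probe sets, and 17 (39.5%) were higher and 14 (32.6%) lower in diluted cortex by limma, near the 38.6% and 36.8% over all probe sets. The counts by role are descriptions and were not tested. Their median difference was 0.08, against 0.01 over all probe sets tested. By role, 5 of 6 coactivators tested fell and none was called higher. Ep300 and Crebbp, histone acetyltransferases that act with Rbpj, were below background in all diluted libraries, and standard cortex was at least 7.38-fold and 8.80-fold higher. Of 8 proteases tested, 5 were higher, among them Psen2 (2.01 higher), the catalytic gamma-secretase subunit, and 2 were lower. Of 6 corepressors tested, Ctbp1 was 3.29 higher and Cir1 fell by 2.93, with 2 higher and 4 lower in all. Of 9 turnover and trafficking genes, 3 were higher, among them Dtx3 (at least 4.22-fold) and Mib2 (at least 2.66-fold), which were below background in standard cortex. Another 3 were lower, among them the ubiquitin ligase Itch (fell by 3.05) and the inhibitor Numb, at least 3.10-fold higher in standard cortex and below background in diluted. Of 4 glycosyltransferases, 2 were higher, with Rfng, a Fringe enzyme that modifies the receptors, 2.71 higher. Of 4 ligands 3 were higher, and of 6 targets 2 were. The adjusted p of the 10 genes named here ranged from 4.7e-08 to 1.5e-06 (limma).

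For the 7 genes above background on at least 3 arrays, the genes most like them were found by Pearson correlation of levels relative to the receptor median over the 15 arrays, among 10619 candidates. These r values are descriptions, since the arrays share groups and amplification. The closest genes were Dync1h1 for Rbpj (r = 0.98), Dupd1 for Maml2 (0.94), 3110082J24Rik for Heyl (0.93), Vstm2l for Dll4 (0.92), Aire for Notch3 (0.90), Spesp1 for Notch1 (0.89) and Mir680-3 for Hey1 (0.79). The next closest were Arel1 and Osbp for Rbpj, Ooep and Norad for Maml2, Otop2 and Ccdc9b for Heyl, D930048N14Rik and Lrrc10b for Dll4, Ccsap and Rgma for Notch3, 9130023H24Rik and Gm11681 for Notch1, and Nos1ap and Gon4l for Hey1. The 10 genes themselves were not among the candidates.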

How the data were processed

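Each of the 15 samples was 1 Affymetrix mouse gene array. The deposited log2 signals, 1 per probe set (35557), came from Affymetrix Expression Console, as named in the submitters' processing notes. Which version, summary method and normalization the authors used is not given in the sources used here. Of the probe sets, 21789 carry 1 gene symbol in the platform annotation, 1621 several and 12147 are unnamed here. All 10 genes matched the RefSeq gene table. The number of arrays limits the precision.

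The members and lists were chosen with earlier results of these data known, and Crip1 and other renin cell markers are not independent of them. Named genes were all 10 members, other pathway genes above background in at least 2 MM cells or 3 JG cells, the 5 largest called changes each way in the cortex fit, and the 3 most correlated genes of each member above background on at least 3 arrays. Diluted and standard cortex were compared with limma 3.58.1 (R 4.3.3) on values as deposited, with probe sets whose brighter group mean reached the median of all probe sets, and Benjamini-Hochberg adjustment at 0.05. The code was tested on simulated data. Groups of cells were described by ranges, since no label separates animals. Tables and figures used Python 3.11.15, pandas 2.3.3 and matplotlib 3.10.9. Alternatives included other references, other background limits, other normalizations and leaving out each cell or library. No cell stood apart from its group in any of the 10 genes by Dixon's criterion.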

Additional observations from a re-analysis of the deposited data

How the results depend on the processing

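The median difference between JG cells and diluted cortex (0.30) was 1.36 on values as deposited, 0.85 relative to the median of all probe sets, and turned to -0.10 relative to the receptor 99th percentile. That between MM cells and diluted cortex (0.02) was 0.86, 0.49 and -0.18 in the same settings, and -0.028 to 0.045 when 1 cell or library was left out, turning without MM cell 19. The cause was not tested. The number of genes with JG wholly above diluted cortex (3) was 8 as deposited, 0 with the 99th percentile, 6 without JG cells 4 and 5 and 5 without JG cells 5 and 6, and 3 to 5 when 1 cell or library was left out. The number below (2) was 0 as deposited. For MM against diluted cortex, 2 above became 10 as deposited and 0 with the 99th percentile, and 1 below became 0 and 2, or 1 to 2 when 1 cell or library was left out. MM wholly below JG (2) was 4 as deposited, 0 with the 99th percentile and 4 without JG cells 4 and 5. The share of named genes without overlap was counted at the main setting only, so these counts have no share to be read against. Leaving out a cell makes it easier for any gene's groups not to overlap. As deposited, the receptors themselves were higher than in diluted cortex, by a median of 1.03 in JG and 0.82 in MM cells. All settings for these counts, those without pairs of JG cells, and the 99th percentile as reference were added after seeing the data.

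Pairs of a gene and an array above background were 28 of 40 in MM, 34 of 50 in JG, 27 of 30 in diluted and 30 of 30 in standard cortex at the 95th percentile of receptors. The share of named genes was not counted at that limit, so these counts do not set the 10 genes apart. At the maximum of the receptors the pairs were 0, 0, 0 and 1, beside the shares of named genes given above for that limit. Without JG cells 4 and 5, 13 of the JG pairs were counted, and named genes were not counted there.

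In the cortex fit, 2 genes were higher relative to the receptor median, 3 after quantile normalization, 2 with the 99th percentile and 0 in the fit of all 15 arrays, which called 3 lower and 3579 probe sets higher and 3832 lower in all. That fit uses the spread of single cells too. The largest change among probe sets of a gene called 6 lower, through a Maml2 probe set below background on all arrays. Whether the letters A to C pair the libraries could not be settled. The correlation of deviations was 0.09, 0.07 and 0.02 between same letters and -0.10 to 0.04 between other letters. Library C of the diluted cortex was closer to standard B (0.04) than to standard C. With the letter as a replicate block, 7428 probe sets were higher and 7056 lower, and no call among the 10 genes changed. No difference of the 10 genes in the cortex fit changed sign under any alternative run.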
